A study of Mus musculus with 12 samples.

Results

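Transcripts of 10 components of the DNA replication fork were followed in a *Dusp4* silencing experiment in mouse liver cancer cells: *Mcm2*, *Mcm4*, *Mcm5*, *Mcm7*, *Pcna*, *Rfc3*, *Rfc4*, *Rpa3*, *Pole2* and *Fen1*. They were picked by name, and all 10 were found among the 770 gene probes of the nCounter® Mouse PanCancer Pathways Panel. The 4 groups were AKT Cre/NRAS cells given a pool of *Dusp4* siRNA, AKT Cre/NRAS cells given a control pool (SCR), AKT/NRAS cells given *Dusp4* siRNA and AKT/NRAS cells given SCR, with 3 samples per group that the study's methods call biological replicates. The parental line, AKT/NRAS, comes from a mouse liver tumour (hepatocellular carcinoma) in which the drivers, activated NRAS and a myristoylated AKT with loxP sites, had been delivered through the tail vein. AKT Cre/NRAS is its derivative after transfection of Cre recombinase, which removed the delivered AKT, so all 4 groups carried the activated NRAS. Each line is a single line, so loss of the delivered AKT cannot be told apart from any other difference between the lines. The run order followed the groups, so position in the run and group cannot be told apart either.

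At a replication fork, the MCM helicase unwinds the parental duplex and replication protein A (RPA) coats the exposed single strands. Replication factor C (RFC) opens the ring of PCNA and loads it onto DNA, where it tethers DNA polymerases delta and epsilon. FEN1 trims the flaps left at Okazaki fragments before they are ligated. Many of these genes are transcribed in late G1 and S phase under E2F control, and for that reason they are widely used as readouts of proliferation in liver tumours. DUSP4 itself is a nuclear phosphatase that inactivates MAP kinases. In bulk RNA, fewer cells in S phase and less transcript per cell cannot be told apart.

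Barcode counts recovered above the deposited floor summed to 641790 to 1081646 per sample. Between 252 and 293 of the 770 genes stood at the floor of 20 in a sample, whereas 9 of the 10 fork genes were above it in all 12 samples and *Mcm5* was at it in every AKT/NRAS sample. Values below are normalized counts, that is the deposited signal scaled to 15 reference genes with a common floor of 27.1, and fold changes are on the log2(value + 1) scale. *Akt1* was lower in AKT Cre/NRAS than in AKT/NRAS under SCR (log2 fold change -5.68) and under siRNA (-5.04), and *Dusp4* was lower after siRNA in AKT Cre/NRAS (-0.45, limma adjusted p = 0.0178) and in AKT/NRAS (-1.73, limma adjusted p = 1.13e-06). *Akt1* stayed above the floor in AKT Cre/NRAS, at 336.7 to 431.6 under SCR and 531.3 to 587.2 under siRNA. The AKT Cre/NRAS SCR libraries stood apart from the rest: the median SD of a gene over the replicates was 0.17 on the log2 scale there and 0.07 to 0.08 in the other groups. The log2 ratio of *Rpl19* (a ribosomal protein) to *Polr2a* (the largest subunit of RNA polymerase II) was 4.72, 4.92 and 5.03 in AKT Cre/NRAS siRNA samples 1 to 3, 5.48, 6.36 and 6.88 in AKT Cre/NRAS SCR samples 1 to 3, and 3.81 to 3.92 in the 6 AKT/NRAS samples. *Rpl19* was among the 15 reference genes used for scaling, and *Polr2a* was a reference gene that was not kept. After scaling, *Rpl19* was 45500, 58540 and 86720 in AKT Cre/NRAS SCR samples 1 to 3, against 38950 to 41420 in AKT Cre/NRAS siRNA. It was lower after siRNA there (-0.61, SE 0.21, limma adjusted p = 0.0338). The scaling thus rested in part on a gene that differed between these groups. Of 7 hepatocyte and liver progenitor markers on the panel, 7 were above the floor in AKT Cre/NRAS and 6 in AKT/NRAS, where *Prom1* was at it. Their summed level was 105400 to 119200 in AKT Cre/NRAS siRNA, 123200 to 164300 in AKT Cre/NRAS SCR, 19620 to 22340 in AKT/NRAS siRNA and 17550 to 18250 in AKT/NRAS SCR. The leukocyte markers other than *Cd14* (7 of 8), the endothelial marker *Kdr* (1 of 2) and 3 of 5 mesenchymal markers were at the floor in all groups. The summed mesenchymal markers were 523.2 to 594.4 in AKT Cre/NRAS siRNA, 349.9 to 488.8 in AKT Cre/NRAS SCR, 141.9 to 164.9 in AKT/NRAS siRNA and 161.2 to 185.6 in AKT/NRAS SCR. The endothelial sum, in which *Flt1* alone was above the floor, was 414.4 to 522.5 in AKT Cre/NRAS siRNA, 265.7 to 396.3 in AKT Cre/NRAS SCR, 959.8 to 1034 in AKT/NRAS siRNA and 1287 to 1430 in AKT/NRAS SCR. The leukocyte sum was 1512 to 1980 over all samples. The part of these markers in the results was not tested.

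The promoters of some members are shown. *Mcm7* is a helicase gene that, like *Mcm4* and *Fen1*, rose after siRNA in AKT/NRAS with a limma adjusted p under 0.05 in every scaling. *Rfc3*, *Rfc4*, *Rpa3* and *Pole2* differed between the lines in their response to siRNA. Each runs 5′ to 3′ from 250 bases before a start site to 50 bases after it, taken from RefSeq (GRCm38.p6). For *Mcm7* and *Pole2* this start site lies inside the gene, whose 5′ ends are at 138172111 and 69228205. The *Mcm7* window thus lies mostly inside the gene. A second *Mcm7* window (138171217-138171516) is not shown. Capitals mark an E2F word (TTTCCCGC, TTTCGCGC, TTTGCCGC or TTTGGCGC), CCAAT or the ETS word CCGGAAGT, on either strand.
Mcm7 (chr5:138171834-138172133, minus strand): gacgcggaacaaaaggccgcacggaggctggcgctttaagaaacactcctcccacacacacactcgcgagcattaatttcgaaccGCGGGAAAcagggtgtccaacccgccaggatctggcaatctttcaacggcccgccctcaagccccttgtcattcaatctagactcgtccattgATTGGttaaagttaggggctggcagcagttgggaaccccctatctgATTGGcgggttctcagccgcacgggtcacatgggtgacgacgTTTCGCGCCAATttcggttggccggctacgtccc
Rfc3 (chr5:151651159-151651458, minus strand): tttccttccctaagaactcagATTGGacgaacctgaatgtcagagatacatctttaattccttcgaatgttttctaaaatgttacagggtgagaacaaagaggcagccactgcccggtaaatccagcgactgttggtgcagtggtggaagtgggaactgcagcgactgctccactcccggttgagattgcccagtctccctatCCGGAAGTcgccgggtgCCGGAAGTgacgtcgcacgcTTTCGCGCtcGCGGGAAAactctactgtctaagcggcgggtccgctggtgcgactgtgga
Rfc4 (chr16:23127681-23127980, minus strand): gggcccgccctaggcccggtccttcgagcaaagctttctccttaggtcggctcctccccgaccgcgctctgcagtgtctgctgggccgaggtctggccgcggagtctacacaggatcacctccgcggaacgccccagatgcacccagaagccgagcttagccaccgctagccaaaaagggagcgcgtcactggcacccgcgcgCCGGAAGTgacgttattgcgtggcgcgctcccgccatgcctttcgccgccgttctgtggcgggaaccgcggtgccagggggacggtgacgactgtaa
Rpa3 (chr6:8259092-8259391, minus strand): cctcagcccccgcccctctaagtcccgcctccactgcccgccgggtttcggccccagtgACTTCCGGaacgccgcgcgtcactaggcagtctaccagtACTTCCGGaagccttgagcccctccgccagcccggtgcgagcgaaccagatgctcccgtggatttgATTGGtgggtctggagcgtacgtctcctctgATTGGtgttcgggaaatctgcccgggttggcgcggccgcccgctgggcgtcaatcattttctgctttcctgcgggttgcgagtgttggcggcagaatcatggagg
Pole2 (chr12:69228141-69228440, minus strand): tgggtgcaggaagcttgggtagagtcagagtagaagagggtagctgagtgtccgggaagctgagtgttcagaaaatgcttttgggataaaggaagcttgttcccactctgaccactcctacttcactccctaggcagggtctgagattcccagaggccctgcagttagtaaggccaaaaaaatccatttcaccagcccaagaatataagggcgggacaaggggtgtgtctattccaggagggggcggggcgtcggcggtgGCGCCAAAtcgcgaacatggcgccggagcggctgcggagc
At its 3′ end the *Mcm7* promoter holds an E2F word and CCAAT that overlap by a base. Of the 9 members matched to a RefSeq promoter, 4 held an E2F word (*Mcm5*, *Mcm7*, *Pole2* and *Rfc3*), against 2.26% of 32851 promoters. CCAAT stood in 6 of the 9 (*Mcm2*, *Mcm5*, *Mcm7*, *Pcna*, *Rfc3* and *Rpa3*), against 37.4% of promoters. The ETS word stood in 3 of the 9 (*Rfc3*, *Rfc4* and *Rpa3*), against 3.89%. A member with a second window (*Mcm7* and *Fen1*) counted if either window held the word, whereas these shares are over single windows. *Mcm4* was not matched, and the *Fen1* windows, which are not shown, held none of these words. No word stood in all of the promoters shown. These matches describe the letters in the window and say nothing of whether a factor binds there.

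**Figure D1:**
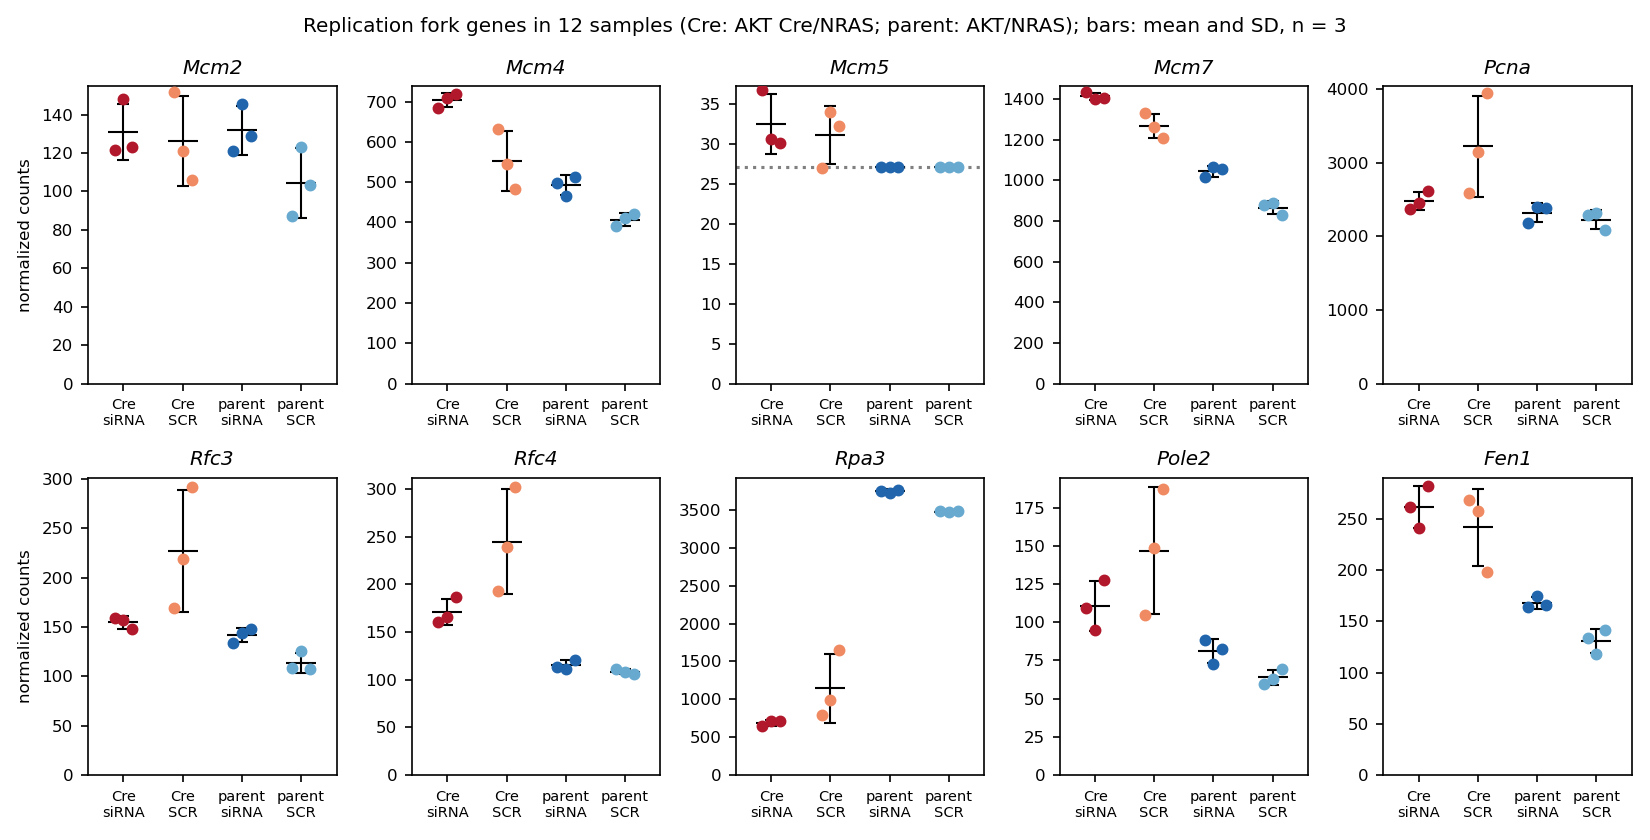
Normalized counts (linear axis from 0) of the 10 fork genes in 12 samples, with the 3 samples of each group as points, the mean as a dash and the SD as bars. The dotted line in the *Mcm5* panel marks the common floor of 27.1. *Rpa3* lay between 647.2 and 1653 in AKT Cre/NRAS samples, below every AKT/NRAS sample, and the AKT Cre/NRAS SCR samples spread most in *Pcna*, *Rfc3*, *Rfc4*, *Rpa3* and *Pole2*.

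The first question was how fork genes responded to *Dusp4* siRNA in the line from which the delivered AKT had been removed. Of the 10 members in AKT Cre/NRAS, 1 rose (*Mcm4*) and 4 fell (*Pcna*, *Rfc3*, *Rfc4* and *Rpa3*), while 45.9% of the 503 tested genes passed, 40.6% upwards and 5.37% downwards. The median log2 fold change was -0.15 over the members and 0.23 over all tested genes. The groups did not overlap for 5 members, against 60% of tested genes: 2 were higher (*Mcm4* and *Mcm7*), against 50.7%, and 3 were lower (*Rfc3*, *Rfc4* and *Rpa3*), against 9.34%.

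Among the helicase genes, *Mcm4* had 685.1, 709.5 and 719.4 normalized counts in AKT Cre/NRAS siRNA samples, against 631, 544.5 and 483.8 in AKT Cre/NRAS SCR samples. Every siRNA sample was above every SCR sample, with a log2 fold change of 0.36 (SE 0.11, limma adjusted p = 0.0245). *Mcm7* had 1433, 1400 and 1405 in AKT Cre/NRAS siRNA samples and 1329, 1264 and 1209 in AKT Cre/NRAS SCR samples. These groups did not overlap either, yet the log2 fold change of 0.16 did not pass (limma adjusted p = 0.127), and it was negative in 3 other scalings (-0.20 after re-centring on the median). *Mcm2* averaged 131 ± 14.8 in AKT Cre/NRAS siRNA and 126.1 ± 23.3 in AKT Cre/NRAS SCR (SD, n = 3 each), and its groups overlapped. *Mcm5* stayed close to the floor, at 30.19 to 36.82 in AKT Cre/NRAS siRNA and 27.07 to 34.03 in AKT Cre/NRAS SCR.

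*Pcna*, the sliding clamp, had 2373, 2454 and 2610 in AKT Cre/NRAS siRNA samples, against 2584, 3143 and 3949 in AKT Cre/NRAS SCR samples. The groups overlapped by SCR sample 1, and the log2 fold change was -0.36 (SE 0.13, limma adjusted p = 0.0494). *Rfc3*, a small subunit of the clamp loader, had 159.6, 156.9 and 147.5 in AKT Cre/NRAS siRNA samples and 169.5, 219.4 and 292.1 in AKT Cre/NRAS SCR samples. All siRNA samples were lower, by -0.52 on the log2 scale (SE 0.18, limma adjusted p = 0.0354). *Rfc4*, another small subunit of the same loader, had 160.7, 165.8 and 186.3 in AKT Cre/NRAS siRNA samples and 193.1, 239.1 and 302.1 in AKT Cre/NRAS SCR samples. It was again lower in every siRNA sample, by -0.49 on the log2 scale (SE 0.16, limma adjusted p = 0.0306).

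The gene for the smallest RPA subunit, *Rpa3*, had 647.2, 712.5 and 709 in AKT Cre/NRAS siRNA samples, against 788.3, 986 and 1653 in AKT Cre/NRAS SCR samples. No sample of either group crossed into the other, and the log2 fold change was -0.66 (SE 0.21, limma adjusted p = 0.0298). *Pole2*, the accessory subunit of polymerase epsilon, had 109.3, 94.74 and 127.7 in AKT Cre/NRAS siRNA samples and 104.5, 148.7 and 187.3 in AKT Cre/NRAS SCR samples. SCR sample 1 fell within the siRNA range, and the log2 fold change of -0.38 did not pass (limma adjusted p = 0.144), although with the replicate number as a block it did (limma adjusted p = 0.0373). *Fen1* averaged 261.3 ± 20.6 in AKT Cre/NRAS siRNA and 241.6 ± 37.7 in AKT Cre/NRAS SCR (SD, n = 3 each), and its groups overlapped.

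Much of this comparison rested on the SCR libraries. SCR sample 3, with the highest *Rpl19* to *Polr2a* ratio, was also the highest of its group in *Pcna*, *Rfc3*, *Rfc4*, *Rpa3* and *Pole2* and the lowest in *Mcm2*, *Mcm4*, *Mcm7* and *Fen1*. With SCR samples 2 and 3 both left out, a choice made after the data were seen, only SCR sample 1 stood against the siRNA samples. The log2 fold changes were then -0.19 for *Rpa3*, -0.13 for *Rfc3*, -0.18 for *Rfc4*, -0.06 for *Pcna* and 0.16 for *Mcm4*. That fit holds no spread among SCR samples, so only its effect sizes are given. Leaving out SCR sample 2, or any one siRNA sample, or using Benjamini-Yekutieli adjustment, left 0 members past the limma threshold, with 4 to 5 at an unadjusted p under 0.05. Without SCR sample 3 alone 4 members passed (1 up and 3 down), and without SCR sample 1 alone 7 did (2 up and 5 down). Over 8 scalings *Rfc3*, *Rfc4* and *Rpa3* were lower in all 8, passing in 2, 3 and 2 of them. *Mcm4* passed in 3 and was 0.00 after re-centring on the median (limma adjusted p = 0.985), whereas *Pcna* was 0.09 higher with the 5 reference genes ranked first. The split of 1 up and 4 down became 0 up and 6 down after re-centring on the median and 1 up and 0 down with 10 or 5 reference genes. All tested genes moved too, and 204 up and 27 down of 503 became 32 up and 136 down of 510 after re-centring. With 10 reference genes 252 were up and 4 down of 499, and with 5 reference genes 254 were up and 1 down of 500.

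In AKT/NRAS, which still carried the delivered AKT, every call among the fork genes was a rise. Of the 9 members that could be tested, 5 rose after *Dusp4* siRNA (*Mcm4*, *Mcm7*, *Rfc3*, *Rpa3* and *Fen1*) and 0 fell, while 17.3% of the 496 tested genes passed, 5.44% upwards and 11.9% downwards. All 9 log2 fold changes were positive, and they stayed positive over the 8 scalings. Their median was 0.27, against -0.03 for all tested genes. The groups did not overlap for 7 of the 9, against 34.7% of tested genes, and all 7 were higher after siRNA, against 11.5%. *Mcm5* was at the floor in all samples and was not tested.

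*Mcm4* had 499.1, 466 and 514 normalized counts in AKT/NRAS siRNA samples, against 390.2, 411.6 and 420 in AKT/NRAS SCR samples. The groups were apart, with a log2 fold change of 0.27 (SE 0.06, limma adjusted p = 0.0176). *Mcm7* had 1014, 1065 and 1055 in AKT/NRAS siRNA samples and 876.1, 889.3 and 828.3 in AKT/NRAS SCR samples. Its log2 fold change was likewise 0.27 (SE 0.04, limma adjusted p = 0.00816), and it passed whichever single sample was left out. *Mcm2* had 121, 145.7 and 128.7 in AKT/NRAS siRNA samples and 86.94, 122.9 and 103.2 in AKT/NRAS SCR samples. SCR sample 2 lay inside the siRNA range, and the log2 fold change of 0.34 did not pass (limma adjusted p = 0.128).

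On the clamp side, *Pcna* averaged 2323 ± 123 in AKT/NRAS siRNA and 2227 ± 128 in AKT/NRAS SCR (SD, n = 3 each), with overlapping groups. *Rfc3* had 133.8, 143.8 and 147.6 in AKT/NRAS siRNA samples and 108.2, 125.2 and 107.9 in AKT/NRAS SCR samples. All siRNA samples were higher, by 0.32 on the log2 scale (SE 0.09, limma adjusted p = 0.0444). *Rfc4* averaged 115 ± 5.26 in AKT/NRAS siRNA and 108.2 ± 2.77 in AKT/NRAS SCR (SD, n = 3 each), and its log2 fold change of 0.09 did not pass (limma adjusted p = 0.468). Whether these subunits of the same loader differed in response was not tested.

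*Rpa3* had 3755, 3728 and 3769 in AKT/NRAS siRNA samples, against 3479, 3470 and 3486 in AKT/NRAS SCR samples. The replicates lay very close together, and a log2 fold change of 0.11 passed (SE 0.02, limma adjusted p = 0.0213), but not in a single fit over all 4 groups (SE 0.20, limma adjusted p = 0.885), without an intensity trend (0.0919), among genes with a mean of at least 50 (0.0531) or with the replicate number as a block (0.0513). *Fen1*, the flap endonuclease, had 164, 174.7 and 165.6 in AKT/NRAS siRNA samples and 133.3, 118.3 and 141.5 in AKT/NRAS SCR samples. It was higher in every siRNA sample, with a log2 fold change of 0.36 (SE 0.08, limma adjusted p = 0.0267). *Pole2* had 88.41, 72.85 and 82.37 in AKT/NRAS siRNA samples and 59.89, 62.61 and 69.61 in AKT/NRAS SCR samples. These groups were apart too, and its log2 fold change of 0.34 came just short of the threshold (limma adjusted p = 0.0527).

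Of these rises, *Mcm4*, *Mcm7* and *Fen1* passed in all 8 scalings and *Rfc3* and *Rpa3* in 6. The count of members past the threshold was 3 without siRNA sample 2, 1 without siRNA sample 3, 1 without SCR sample 1 and 2 without SCR sample 2, and all 9 passed on the values as deposited, where the median of all tested genes was 0.30. Under Benjamini-Yekutieli adjustment 0 members passed in limma (7 at an unadjusted p under 0.05). A single fit over all 4 groups left 1 member past the threshold (4 at an unadjusted p under 0.05). An ordinary linear model per gene left 2 (6 at an unadjusted p under 0.05), and the replicate number as a block also left 2 (7 at an unadjusted p under 0.05).

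**Figure D2:**
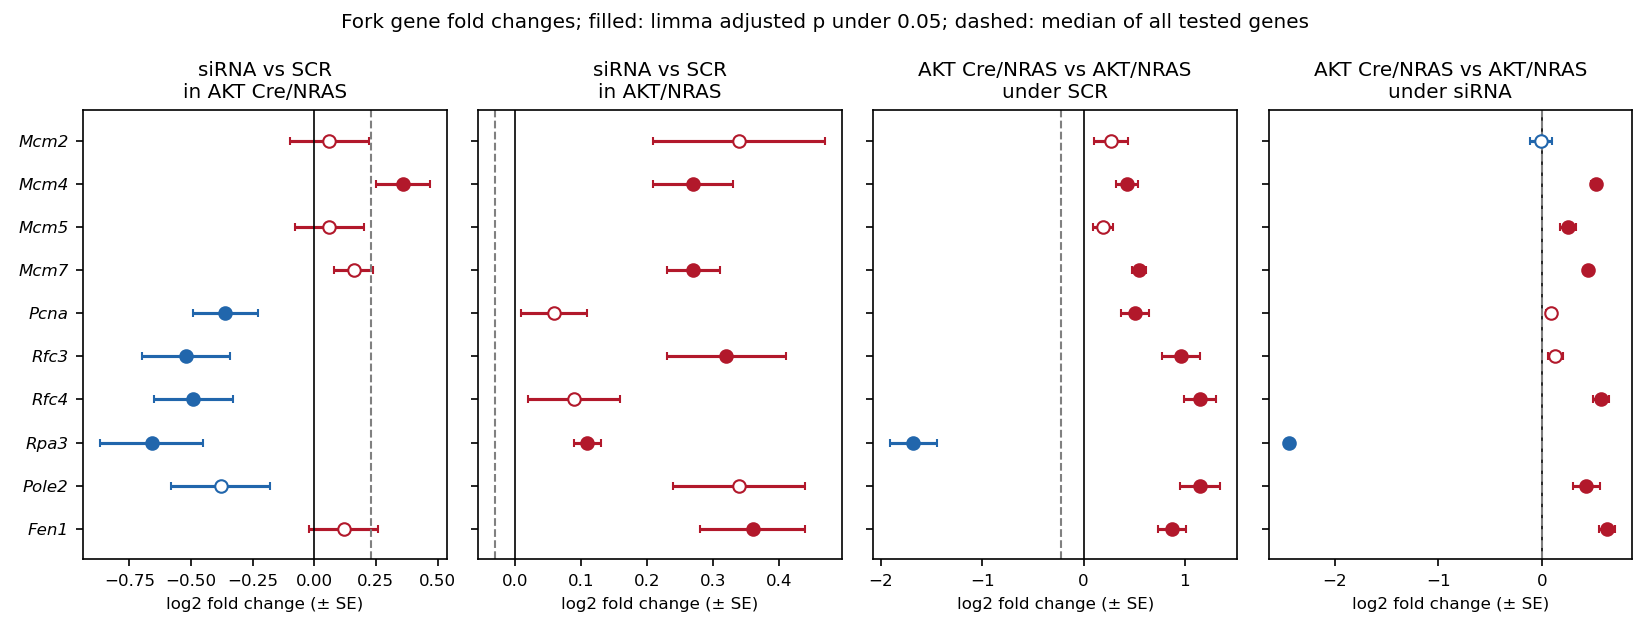
Log2 fold changes with their standard errors (x axis, a separate scale per panel) of the fork genes in 4 comparisons of 3 samples against 3. Filled points had a limma adjusted p under 0.05, and the dashed line is the median of all tested genes (0.23, -0.03, -0.22 and 0 from left to right). In both comparisons between the lines *Mcm5* was set against AKT/NRAS samples at the floor, and its filled point under siRNA is not counted as a call. In AKT/NRAS all 9 tested members lay right of 0 under all 8 scalings, whereas in AKT Cre/NRAS the 10 members lay on both sides under the scaling shown, and *Pcna*, *Pole2*, *Mcm2*, *Mcm5*, *Mcm7* and *Fen1* changed side in at least 1 other scaling.

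The responses of the lines were then set against each other over all 12 samples. The silencing itself differed, with *Dusp4* at -0.45 in AKT Cre/NRAS and -1.73 in AKT/NRAS (interaction 1.28, SE 0.15, limma adjusted p = 0.000728). *Dusp4* was 3769 to 4174 in AKT Cre/NRAS siRNA, above the 1186 to 1273 of AKT/NRAS SCR. The part of this in the differences below was not tested. The siRNA response of *Rfc3*, *Rfc4*, *Rpa3* and *Pole2* was lower in AKT Cre/NRAS than in AKT/NRAS, and 0 members had a higher one that passed in limma (5 members were at an unadjusted p under 0.05, all lower), while 45.3% of 525 tested genes passed the interaction term, 40.6% upwards and 4.76% downwards. The difference in log2 fold change was -0.83 for *Rfc3* (SE 0.22, limma adjusted p = 0.0121) and -0.58 for *Rfc4* (SE 0.19, limma adjusted p = 0.029). It was -0.77 for *Rpa3* (SE 0.28, limma adjusted p = 0.0422) and -0.71 for *Pole2* (SE 0.26, limma adjusted p = 0.0439). These 4 kept their sign over the 7 scalings run and passed in 6 (*Rfc3*), 5 (*Rfc4*), 6 (*Rpa3*) and 5 (*Pole2*) of them, with 0 members past the threshold in limma with 5 reference genes (1 at an unadjusted p under 0.05) or under the Benjamini-Yekutieli adjustment that the study used (5 at an unadjusted p under 0.05). *Rfc3* passed whichever 1 of the 12 samples was left out. The helicase genes did not pass, with -0.28 for *Mcm2*, 0.08 for *Mcm4*, 0.06 for *Mcm5* and -0.12 for *Mcm7*, and each of them changed sign in at least 1 other scaling (*Mcm2* was 0.20 with the 5 reference genes ranked first). *Pcna* (-0.42, limma adjusted p = 0.0647) and *Fen1* (-0.24, limma adjusted p = 0.256) did not pass, and with the same 5 reference genes they were 0.06 and 0.24. Leaving out AKT Cre/NRAS SCR samples 2 and 3 left only sample 1 of that group. It moved *Rfc3* to -0.45, *Rpa3* to -0.30, *Rfc4* to -0.26 and *Pole2* to -0.27. The count of members past the threshold was 2 without AKT/NRAS siRNA sample 1. It was 1 without AKT/NRAS siRNA sample 3, any AKT/NRAS SCR sample or AKT Cre/NRAS siRNA sample 1 or 2.

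With the control pool, the lines differed more widely. In the SCR samples 7 of the 10 members were higher in AKT Cre/NRAS than in AKT/NRAS (*Pcna*, *Mcm4*, *Mcm7*, *Rfc3*, *Rfc4*, *Pole2* and *Fen1*) and 1 was lower (*Rpa3*), while 76.9% of 515 tested genes passed, 28.9% upwards and 48% downwards. The median log2 fold change was 0.53 over the members, with *Mcm5* set against the floor, and -0.22 over all tested genes. The same 8 members did not overlap between the lines, against 79.8% of tested genes, 30.7% higher and 49.1% lower.

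*Rpa3* was the only member that was lower, at 788.3, 986 and 1653 in AKT Cre/NRAS SCR samples, against 3479, 3470 and 3486 in AKT/NRAS SCR samples. Its level in AKT Cre/NRAS was 0.313 of that in AKT/NRAS (log2 fold change -1.68, SE 0.23, limma adjusted p = 0.00018). The largest rises were those of *Rfc4* (1.15, SE 0.16, limma adjusted p = 0.000191) and *Pole2* (1.15, SE 0.20, limma adjusted p = 0.000722). *Rfc3* followed at 0.96 (SE 0.19, limma adjusted p = 0.00155) and *Fen1* at 0.87 (SE 0.14, limma adjusted p = 0.000505). Smaller rises were those of *Mcm7* (0.55, limma adjusted p = 0.000152), *Pcna* (0.51, limma adjusted p = 0.00996) and *Mcm4* (0.43, limma adjusted p = 0.00595). With reference genes chosen within the comparison *Pcna* was -0.01 and *Mcm4* was -0.09, and 3 members remained up and 1 down.

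*Mcm2* (0.27) and *Mcm5* (0.19) did not pass. *Mcm5*, at the floor in all 3 AKT/NRAS SCR samples, averaged at least 1.15-fold more in AKT Cre/NRAS SCR, with 1 of its 3 samples also at the common floor. With AKT Cre/NRAS SCR samples 2 and 3 left out, only sample 1 of that group remained. *Rpa3* was then -2.14, *Rfc3* 0.57, *Rfc4* 0.83, *Pole2* 0.70 and *Pcna* 0.22.

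Under *Dusp4* siRNA, of the 9 members above the floor in both lines 5 were up in AKT Cre/NRAS (*Mcm4*, *Mcm7*, *Rfc4*, *Pole2* and *Fen1*) and 1 was down (*Rpa3*), while 74.5% of 522 tested genes passed, 36.6% upwards and 37.9% downwards. The groups did not overlap for the same 6 members, against 76.6% of tested genes, 37.9% higher and 38.7% lower. These shares of all tested genes include genes at the floor in 1 line, such as *Mcm5*, which the member counts leave out. The AKT Cre/NRAS replicates were tighter than under SCR. *Rpa3* had 647.2, 712.5 and 709 in AKT Cre/NRAS siRNA samples, against 3755, 3728 and 3769 in AKT/NRAS siRNA samples. It stood at 0.184 of the AKT/NRAS level (log2 fold change -2.44, SE 0.04, limma adjusted p = 7.85e-09), and its range over 8 scalings was -2.50 to -2.34. *Fen1* had 261.1, 240.8 and 282.1 in AKT Cre/NRAS siRNA samples, against 164, 174.7 and 165.6 in AKT/NRAS siRNA samples. This was a rise of 0.63 on the log2 scale (SE 0.08, limma adjusted p = 0.000188). *Rfc4* was higher by 0.57 (SE 0.08, limma adjusted p = 0.000476), *Mcm4* by 0.52 (SE 0.05, limma adjusted p = 5.49e-05), *Mcm7* by 0.44 (SE 0.03, limma adjusted p = 1.5e-05) and *Pole2* by 0.43 (SE 0.13, limma adjusted p = 0.0161). *Mcm5* lay at 30.19 to 36.82 in AKT Cre/NRAS siRNA, at least 1.2-fold the floor at which all 3 AKT/NRAS siRNA samples stood. It entered the fit only through AKT Cre/NRAS, so its p is not counted as a call. *Rfc3* (0.13), *Pcna* (0.09) and *Mcm2* (-0.01) did not pass. *Rfc3* was thus 0.96 higher in AKT Cre/NRAS under SCR and 0.13 under siRNA, and the test of that difference is the interaction term given above.

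**Figure D3:**
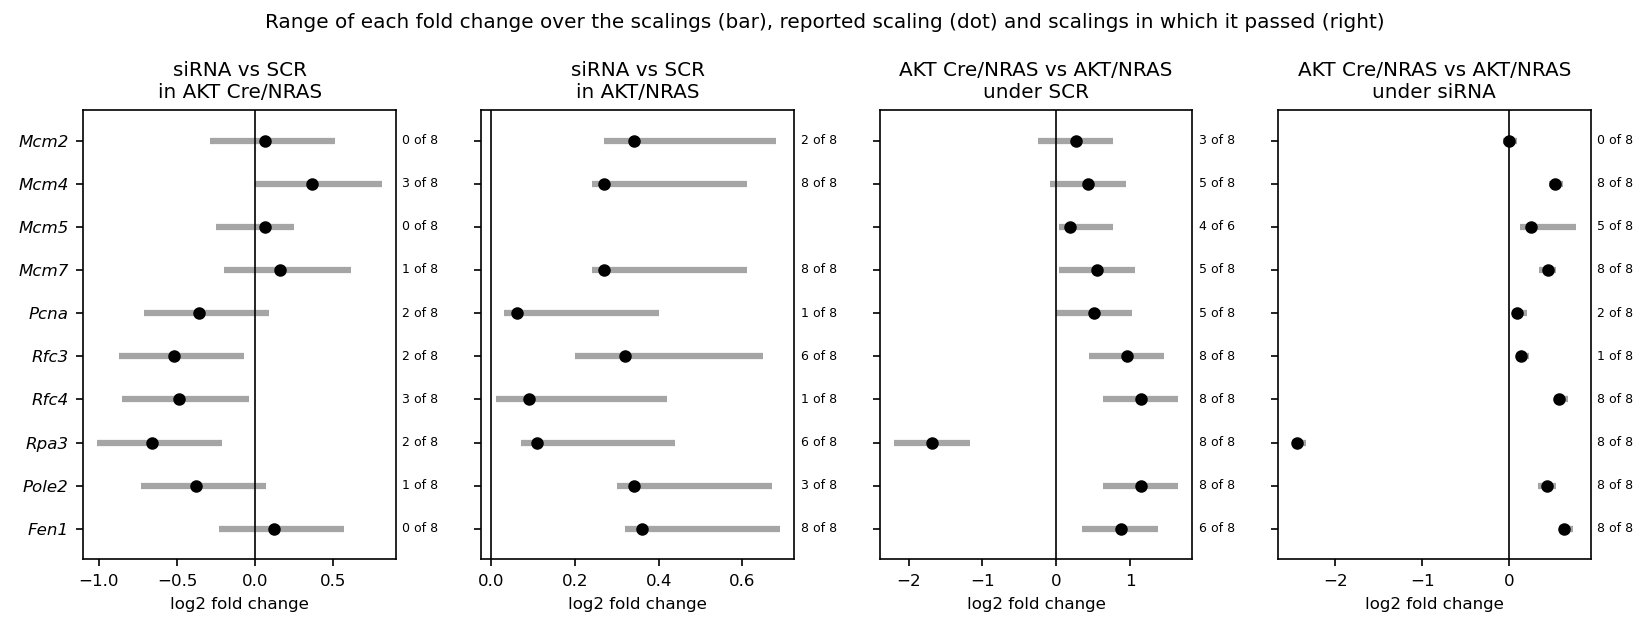
Grey bars give the lowest to highest log2 fold change (x axis) of each fork gene over up to 8 ways of scaling the samples, black dots the reported scaling, and the figures at the right how many scalings passed a limma adjusted p of 0.05. *Rpa3* was lower in AKT Cre/NRAS than in AKT/NRAS in all 8. After siRNA in AKT/NRAS every tested member rose in all 8, and *Mcm4*, *Mcm7* and *Fen1* passed in all 8. *Mcm5* was not tested there. The bars of *Mcm2*, *Mcm5*, *Mcm7*, *Pcna*, *Pole2* and *Fen1* crossed 0 for siRNA in AKT Cre/NRAS.

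Differences between genes of the same sample are unchanged by any scaling that multiplies a sample by 1 factor, and a pair of them was looked at after the values had been seen, as a description. The mean log2 signal of *Mcm2*, *Mcm4* and *Mcm7* minus that of *Rfc3* and *Rfc4* was 1.62, 1.71 and 1.59 in AKT Cre/NRAS siRNA samples 1 to 3 and 1.47, 0.93 and 0.41 in AKT Cre/NRAS SCR samples 1 to 3. In the other line it was 1.68, 1.72 and 1.62 in AKT/NRAS siRNA and 1.5, 1.61 and 1.63 in AKT/NRAS SCR. AKT Cre/NRAS SCR samples 2 and 3 were thus the ones outside a narrow band, and they also had the highest *Rpl19* to *Polr2a* ratios, whose part in this was not tested. The log2 signal of *Rpa3* minus that of *Pcna* was -1.87, -1.78 and -1.88 in AKT Cre/NRAS siRNA, -1.71, -1.67 and -1.26 in AKT Cre/NRAS SCR, 0.78, 0.63 and 0.66 in AKT/NRAS siRNA and 0.60, 0.59 and 0.74 in AKT/NRAS SCR. Here the lines separated without overlap in all 12 samples.

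**Figure D4:**
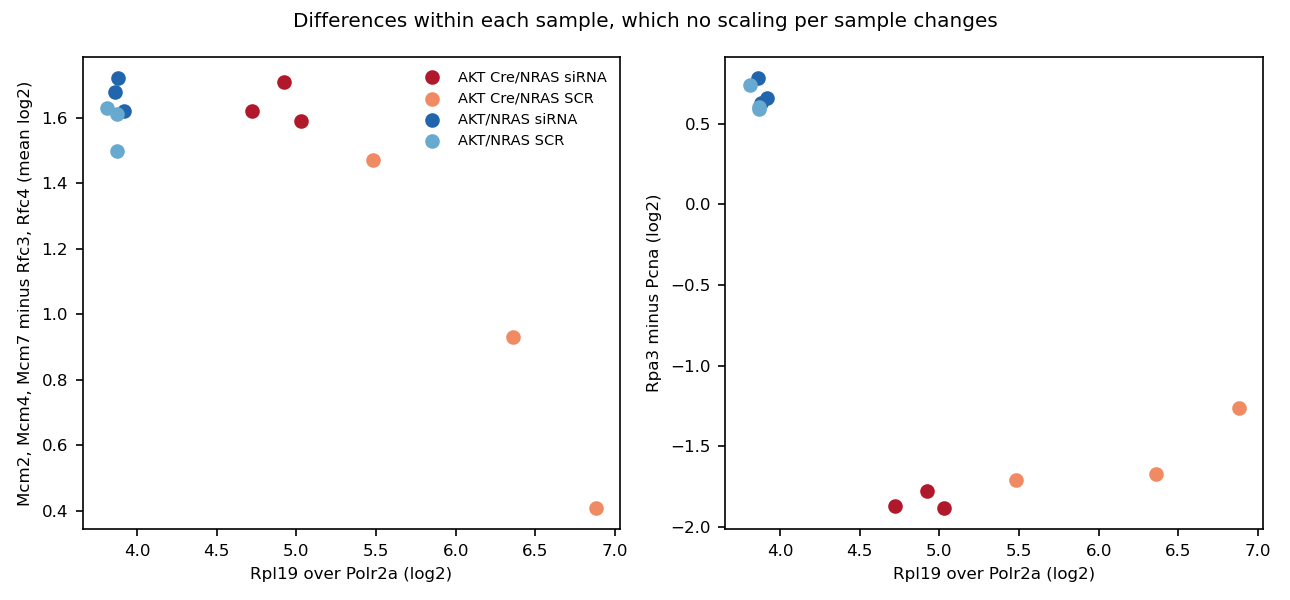
Differences between fork genes within each of 12 samples (y axes, log2 of the deposited signal) against the log2 ratio of *Rpl19* to *Polr2a* (x axis), coloured by group. On the left the helicase minus clamp loader difference was 1.47 to 1.72 in 10 samples and 0.93 and 0.41 in AKT Cre/NRAS SCR samples 2 and 3. On the right *Rpa3* minus *Pcna* was -1.88 to -1.26 in AKT Cre/NRAS and 0.59 to 0.78 in AKT/NRAS.

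Other genes of DNA replication and the cell cycle were followed as lists. Of the origin licensing and firing list 2 of 19 genes were on the panel, and the most that could be tested in a comparison was 1, *Cdc7*, the kinase that fires origins, at 0.01 after siRNA in AKT/NRAS. After siRNA 45.9% of all tested genes passed in AKT Cre/NRAS and 17.3% in AKT/NRAS. For 5 other DNA synthesis genes, limma passed 0 of 5 after siRNA in AKT Cre/NRAS (1 at an unadjusted p under 0.05, median 0.14) and 0 of 5 in AKT/NRAS (2 at an unadjusted p under 0.05, median -0.03). Between the lines all 5 passed, where 76.9% of all tested genes did so under SCR and 74.5% under siRNA. *Pold4* (0.73 under SCR and 0.65 under siRNA), a small subunit of polymerase delta, and *Top2a* (0.63 and 0.77), a topoisomerase, had more transcript in AKT Cre/NRAS, and 3 were lower there, among them *Lig4* (-1.03 and -0.87), a ligase of end joining.

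The counts that follow stand beside all tested genes. After siRNA 40.6% of these rose and 5.37% fell in AKT Cre/NRAS, and 5.44% rose and 11.9% fell in AKT/NRAS. Of the S phase cyclins, E2F and RB genes, 2 rose and 1 fell among 8 tested after siRNA in AKT Cre/NRAS. *Ccne2*, cyclin E2, fell (-1.02, limma adjusted p = 0.0046), and *Cdc25a*, a phosphatase that activates CDK2, rose (0.44, limma adjusted p = 0.0086). In AKT/NRAS 1 rose and 1 fell among 9, namely *Skp2* (0.38, limma adjusted p = 0.0174), an F-box protein that degrades p27, and *Ccna2*, cyclin A2 (-0.52, limma adjusted p = 0.00161). The fork checkpoint and repair list gave 4 up and 1 down of 22 in AKT Cre/NRAS, with *Atm* at 0.67 and *Rad50* at 0.65, and 2 up and 0 down of 23 in AKT/NRAS (5 at an unadjusted p under 0.05), with *Ube2t*, a ubiquitin-conjugating enzyme of the Fanconi anaemia pathway, at 0.27. The G2 and mitosis list gave 3 up and 1 down of 8 in AKT Cre/NRAS and 1 up and 0 down of 8 in AKT/NRAS (2 at an unadjusted p under 0.05). Between the lines under SCR, these last lists gave 5 up and 2 down of 9, 7 up and 10 down of 23 and 4 up and 3 down of 8, and under siRNA 3 up and 2 down of 9, 7 up and 7 down of 23 and 5 up and 2 down of 8. Of all tested genes 28.9% were up and 48% down under SCR, and 36.6% up and 37.9% down under siRNA.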

How the data were processed

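Total RNA of 12 samples was measured on the nCounter® Mouse PanCancer Pathways Panel (770 genes, 6 positive and 8 negative controls). The authors processed the scans in nSolver. The signal they deposited for a probe is its barcode count times 1 positive-control factor per sample, and it is never under 20. Columns were assigned to samples by the run number in the labels. The automatic reference gene step named in the methods was not carried by these values, so geNorm over all 12 samples was applied (15 of the 20 reference genes kept, read from the end of the gene table). A common floor of 27.1 was set, 1 was added and log2 was taken, and a gene that no sample of a comparison held above the floor was left out of it. Barcode counts at the floor are not known, so no count model was fitted.

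Each comparison was fitted over all remaining genes on its own samples (limma 3.58.1 under R 4.3.3, with a moderated variance that follows mean signal). P-values were adjusted by Benjamini-Hochberg, with 0.05 as the threshold, and by Benjamini-Yekutieli, which the study used, as an alternative. The functions were tested on simulated data. All 10 members are named, with up to 4 genes of each list by smallest p, *Dusp4*, *Rpl19* and *Polr2a*. *Akt1* was added after its values were seen. A gene of the fork checkpoint and repair list is counted but not reported by name here. Members, lists and tests were chosen with earlier results of these data known. The replicate numbers come from the labels, and the deviations of same-numbered samples correlated at 0.22, 0.15 and 0.22 between siRNA and SCR in AKT Cre/NRAS (genes above the floor in all samples), so the blocked fit is given there where it changed a call. Other scalings, filters, adjustments and left-out samples were run as alternatives. Promoters came from RefSeq (GRCm38.p6) and were searched in Python 3.11.15, and figures were drawn with matplotlib 3.10.9.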

Additional observations from a re-analysis of the deposited data

Results flagged for a closer look

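The response to *Dusp4* siRNA differed between the lines by the interaction term of limma for 4 of the 10 fork genes, all lower in AKT Cre/NRAS, where 45.3% of 525 tested genes passed and 4.76% did so downwards. The siRNA response in AKT Cre/NRAS minus that in AKT/NRAS was -0.83 on the log2 scale for *Rfc3* (limma adjusted p = 0.0121), with -0.52 in AKT Cre/NRAS and 0.32 in AKT/NRAS. For *Rfc4* it was -0.58 (limma adjusted p = 0.029), with -0.49 in AKT Cre/NRAS and 0.09 in AKT/NRAS. For *Rpa3* it was -0.77 (limma adjusted p = 0.0422), with -0.66 in AKT Cre/NRAS and 0.11 in AKT/NRAS. For *Pole2* it was -0.71 (limma adjusted p = 0.0439), with -0.38 in AKT Cre/NRAS and 0.34 in AKT/NRAS. *Dusp4* itself fell less after siRNA in AKT Cre/NRAS (-0.45) than in AKT/NRAS (-1.73), and the part of that was not tested. AKT Cre/NRAS SCR samples 2 and 3 held the highest values of all 4 genes in their group. Without both of them, which left only sample 1 of that group, the 4 values were -0.45, -0.26, -0.30 and -0.27 in the same gene order.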

How the results depend on the processing

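For siRNA in AKT Cre/NRAS, 5 members passed. The count was 0 with the values as deposited, quantile normalization, reference genes chosen within the comparison, no filter on low values, an ordinary linear model per gene (2 at an unadjusted p under 0.05) or Benjamini-Yekutieli adjustment, with up to 5 members at an unadjusted p under 0.05 in these settings. It was 1 with all 20, the first 10 or the first 5 reference genes, and 0 to 7 without a single sample. For siRNA in AKT/NRAS, 5 passed. The count was 9 as deposited, 3 with 10 reference genes or no filter, 2 with an ordinary linear model, 1 with a single fit over all 4 groups, 0 with Benjamini-Yekutieli adjustment (7 at an unadjusted p under 0.05), and 1 to 5 without a single sample. For the lines under SCR, 8 passed, against 5 with 10 reference genes, 4 with 5 and 4 with those chosen within the comparison, and 7 to 9 without a single sample. The count there was 10 as deposited, with all 20 reference genes or re-centred on the median, and 9 by quantiles, with *Mcm5* set against the floor. Under siRNA 7 passed with *Mcm5*, whose AKT/NRAS values are all at the floor, and 6 with a mean of at least 50, which drops it, and every alternative was within 1.5 times that, with 5 to 7 without a single sample. For the interaction 4 passed. The count was 2 with 10 reference genes, 0 with 5 (1 at an unadjusted p under 0.05), 9 after re-centring on the median, 8 with quantile normalization, 1 with no filter or an ordinary linear model, 0 with Benjamini-Yekutieli adjustment (5 at an unadjusted p under 0.05), and 1 to 5 without a single sample. Fewer genes or samples enter some of these fits by construction, and for the rest the cause was not tested.

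These log2 fold changes changed sign. For siRNA in AKT Cre/NRAS, *Mcm2* was -0.02 as deposited, -0.01 with all 20 reference genes, -0.29 re-centred, -0.17 by quantiles, -0.15 with reference genes of the comparison and -0.22 without SCR samples 2 and 3, and -0.05 to 0.20 without a single sample. *Mcm5* was -0.25 re-centred, -0.04 by quantiles, -0.16 with reference genes of the comparison and -0.03 to 0.13 without a single sample. *Mcm7* was -0.20 re-centred (limma adjusted p = 0.0284, a fall), -0.10 by quantiles and -0.06 with reference genes of the comparison. *Fen1* was -0.23, -0.10 and -0.09 in the same settings, -0.04 without SCR samples 2 and 3 and -0.01 to 0.20 without a single sample. *Pcna* was 0.09 and *Pole2* 0.07 with 5 reference genes, and *Pole2* was 0.07 without SCR samples 2 and 3. Between the lines under SCR, *Mcm2* was -0.01 with 10 reference genes, -0.15 with 5 and -0.25 with those of the comparison, which also gave *Pcna* -0.01 and *Mcm4* -0.09. Under siRNA, *Mcm2* was 0.07 as deposited, 0.09 with all 20 and 0.05 with 5 reference genes, and -0.10 to 0.06 without a single sample. For the interaction, *Mcm4* was -0.34 as deposited, -0.33 re-centred (limma adjusted p = 0.024), -0.27 by quantiles (limma adjusted p = 0.0287), -0.12 without SCR samples 2 and 3, and -0.01 to 0.18 without a single sample. *Mcm5* was -0.25 re-centred, -0.04 by quantiles and -0.03 to 0.13 without a single sample, *Mcm7* 0.11 with 10 and 0.37 with 5 reference genes, and with 5 *Pcna* was 0.06, *Mcm2* 0.20 and *Fen1* 0.24.

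With the replicate number as a block, 6 members passed for siRNA in AKT Cre/NRAS, the added one being *Pole2*. The main fits had no block in any comparison. Correlations of same-numbered samples were -0.07, 0.01 and -0.05 for siRNA in AKT/NRAS and -0.01, -0.02 and -0.04 between the lines under SCR. Between the lines under siRNA they were 0.23, 0.05 and 0.20, and all 3 numbers correlated best with themselves, as they did in AKT Cre/NRAS. The block left 2 members for siRNA in AKT/NRAS (*Mcm4* and *Mcm7*), 8 for the lines under SCR, 8 under siRNA (*Pcna* added) and 4 for the interaction.

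Over the panel, 231 genes passed for siRNA in AKT Cre/NRAS (204 up, 27 down), against 1 as deposited, 90 by quantiles (52 up, 38 down), 168 re-centred (32 up, 136 down), 256 with 10 (252 up, 4 down) and 255 with 5 reference genes (254 up, 1 down), 100 with reference genes of the comparison, 56 with no filter, 70 with Benjamini-Yekutieli adjustment, 0 with an ordinary linear model (211 at an unadjusted p under 0.05) and 99 to 297 without a single sample. For siRNA in AKT/NRAS 86 passed (27 up, 59 down), against 290 as deposited (287 up, 3 down), 88 re-centred (47 up, 41 down), 85 by quantiles (46 up, 39 down), 105 with 10 (18 up, 87 down) and 110 with 5 reference genes (22 up, 88 down), 45 with no filter, 26 with an ordinary linear model, 10 with Benjamini-Yekutieli adjustment, 23 with a single fit and 39 to 92 without a single sample. For the lines under SCR 396 passed (149 up, 247 down), against 301 as deposited (202 up, 99 down), 405 re-centred (224 up, 181 down), 378 with 10 reference genes (97 up, 281 down), 325 with 5 (69 up, 256 down) and 318 with those of the comparison (59 up, 259 down). For the interaction 238 passed (213 up, 25 down), against 32 as deposited (2 up, 30 down), 201 re-centred (50 up, 151 down), 190 by quantiles (98 up, 92 down), 306 with 5 reference genes (305 up, 1 down) and 101 with Benjamini-Yekutieli adjustment. The median of all tested genes for siRNA in AKT Cre/NRAS ranged over the scalings between -0.10 re-centred and 0.67 with 5 reference genes. *Mcm5*, at or near the floor, limits what can be said of its direction. Recovered barcodes per sample were few for *Pole2* (54 to 168), *Mcm2* (89 to 161), *Rfc3* (93 to 262), *Rfc4* (91 to 271) and *Fen1* (102 to 327).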

Other observations

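Over the 12 samples, Pearson's r between the log2 values of 9 fork genes (all but *Mcm5*) ran from -0.92 (*Rpa3* with *Fen1*) to 0.96 (*Mcm7* with *Fen1*) over 36 pairs, with a median of 0.52 and 9 pairs below 0. *Rpa3*, which was lower in AKT Cre/NRAS while most other members were higher, had a negative r with the other 8 members. After the group means were taken out, *Rpa3* stood at 0.93 with *Rfc4*, 0.91 with *Pcna* and 0.89 with *Rfc3*, and at -0.82 with *Mcm4* and -0.71 with *Mcm7*. *Pcna* likewise stood at 0.94 with *Rfc4* and -0.84 with *Mcm4*. The points share their libraries and scaling factors, and the AKT Cre/NRAS SCR samples carried most of the spread within groups, so these values describe the 12 samples only.

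Among 445 other genes above the floor in all samples, those closest to the mean standardised profile of the 9 fork genes were *Cxcl1*, a chemokine (r = 0.96), *Pdgfd*, a growth factor of the PDGF family (0.96), *Bax*, a promoter of apoptosis (0.94), *Il1r1*, an interleukin 1 receptor (0.94), and *Clcf1*, a cytokine (0.94). That profile was 0.28, 0.38 and 0.47 in AKT Cre/NRAS siRNA, 0.51, 0.67 and 0.87 in AKT Cre/NRAS SCR, -0.30, -0.14 and -0.13 in AKT/NRAS siRNA and -1.01, -0.71 and -0.89 in AKT/NRAS SCR. It was thus higher in every AKT Cre/NRAS sample than in any AKT/NRAS sample. Between the lines 76.9% of tested genes passed in limma under SCR and 74.5% under siRNA. The part of that line difference in these r values was not tested.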
